A study of Sus scrofa with 15 samples.

Results

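The genes described here are 10 transcription factors with parts in blood cells or bone cells: the RUNX family (RUNX1, RUNX2 and RUNX3), the myeloid factors SPI1, IRF5, IRF8 and CEBPE, the osteoclast factors MITF and NFATC1, and the repressor BCL6. They were chosen by symbol, all 10 were found among the 30477 Ensembl genes counted in every library, and 9 of them passed the filter on low counts. CEBPE did not. Their RNA was measured by RNA-seq in backfat, the subcutaneous fat of the back, of 15 Iberian pigs, 5 on each of 3 diets. The control diet (C) was a compound feed, the DOP diet a compound feed with dry olive pulp, and the WCOC diet a compound feed without olive by-product plus freely available silage of wet crude olive cake and barley straw. The animals were 12 months old at the biopsy, and each diet was fed to a single pen. Compound feed was restricted in all 3 groups, more strongly in DOP and WCOC than in C, and intake was not recorded per animal. The 15 biopsies were picked from a larger herd by the quantity and quality of their RNA. The sex of the animals is not given in the sources used here.

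RUNX proteins bind DNA through the Runt domain together with the partner CBFB. RUNX1 is needed for blood stem cells and for myeloid and platelet lineages, RUNX2 for osteoblasts, and RUNX3 for cytotoxic T and natural killer cells. SPI1 encodes PU.1, an ETS factor that sets the macrophage fate, and it acts on many enhancers with IRF8 and RUNX1. In fat, the cells best known to make PU.1 are resident macrophages, while BCL6 and NFATC1 are also made by cells of other kinds, muscle fibres included.

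The 3 RUNX genes are paralogs, so a stretch of their coding exons is shown first, because the counts of one gene could in principle hold reads of another. The 60-base windows below are the stretch of a single RUNX1 coding exon with the closest matches in RUNX2 (56 of 60 bases) and RUNX3 (55 of 60 bases), read 5′ to 3′ from the Sscrofa11.1 assembly. Capitals mark the 7 positions at which the 3 genes do not all share a base. The RUNX1 window lies on the minus strand of chr13:198468161-198468220, the RUNX2 window on the plus strand of chr7:40206209-40206268 and the RUNX3 window on the minus strand of chr6:82560279-82560338.
RUNX1: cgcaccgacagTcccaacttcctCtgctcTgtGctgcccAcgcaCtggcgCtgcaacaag
RUNX2: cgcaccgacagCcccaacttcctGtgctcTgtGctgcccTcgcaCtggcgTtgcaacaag
RUNX3: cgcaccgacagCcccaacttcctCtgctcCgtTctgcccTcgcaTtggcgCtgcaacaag
Over all annotated exons, the longest run of identical bases was 22 between RUNX1 and RUNX2, 23 between RUNX1 and RUNX3, and 29 between RUNX2 and RUNX3. All of these are shorter than a 76-base read, so a read that lies within an exon held at least 1 base that told the paralogs apart.

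The promoter of BCL6 is shown because this gene was called in both comparisons of DOP. It is the 250 bases before the start of the RefSeq gene, in Sscrofa11.1. The window is chr13:125401329-125401578 on the minus strand. Capitals mark a match to the STAT motif TTCNNNGAA, which reads the same on both strands.
BCL6: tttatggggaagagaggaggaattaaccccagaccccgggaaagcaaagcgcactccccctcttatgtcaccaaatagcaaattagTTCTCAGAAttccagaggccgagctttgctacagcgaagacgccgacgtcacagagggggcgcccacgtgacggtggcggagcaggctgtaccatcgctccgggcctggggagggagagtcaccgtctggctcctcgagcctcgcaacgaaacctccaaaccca
The BCL6 window held 1 STAT match, 164 bases before the start, and 6.12% of the windows of that length before 19556 protein-coding genes held one. A PU.1 motif (GAGGAAGT, both strands) was found in 1.64% of all these windows and a RUNX motif (TGTGGT, both strands) in 14%, and neither was found in the BCL6 window. Among the other members, the RUNX motif occurred in the windows of RUNX2, RUNX3 and CEBPE, the PU.1 motif in that of MITF, and the STAT motif in those of IRF8 and MITF.

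Library depth ran from 22373715 to 34745218 counts on genes. By the run identifiers, the WCOC libraries and C1 to C4 were read on flow cell A, and the DOP libraries and C5 on flow cell B, so that diet and flow cell cannot be told apart for DOP. Libraries C3 and C5 stood apart from the other 3 control libraries: the summed level of 13 macrophage markers was 600 CPM (counts per 1000000 of the library size, scaled by the trimmed mean of M values, TMM) in C3 and 739 CPM in C5, against 281 to 395 CPM in C1, C2 and C4, 213 to 502 CPM in DOP and 163 to 371 CPM in WCOC. The differences of the members from C are therefore given with and without these 2 libraries. Adipocyte markers were high in all 15 libraries (11913 to 20280 CPM summed over 9 genes, with ADIPOQ the highest). Skeletal muscle markers were uneven, from 17.5 CPM in WCOC3 to 46835 CPM in DOP5 summed over 5 genes. In bulk RNA, fewer cells of a type and less RNA per cell cannot be told apart.

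Compared per kilobase of annotated exon over the 15 libraries, SPI1 had the highest mean level (16.5 ± 12.6 CPM per kb, SD, n = 15), followed by NFATC1 (14.99 ± 3.34 CPM per kb) and BCL6 (6.24 ± 2.25 CPM per kb). IRF5 followed at 3.38 CPM per kb, RUNX1 at 2.71, MITF at 2.51 and IRF8 at 2.40 CPM per kb, and these neighbours differed by less than their SD over libraries. RUNX2 (1.32 CPM per kb), RUNX3 (0.452 CPM per kb) and CEBPE (0.0429 CPM per kb) came last. The first place of SPI1 came from the control group: its mean was 27.7 CPM per kb in C against 13.5 for NFATC1, but 10.3 against 16.5 CPM per kb in DOP and 11.4 against 14.97 CPM per kb in WCOC. Over all 15 libraries the means of the 2 genes differed by less than the SD of either. The place of NFATC1 rests on a RefSeq model with a single transcript of 2506 exonic bases, which may be shorter than the model the authors counted on. The other places rest on the merged exons of all transcripts: 16995 bases for MITF (13 transcripts), 10907 for BCL6 (7) and 1433 for SPI1 (2). By CPM without regard to length, BCL6 (mean 68.1) and MITF (42.7) were the highest members, and SPI1 had 23.6 CPM.

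CEBPE, the factor of late granulocyte maturation on chromosome 7 from 75926652 to 75929949, was counted 0 to 7 times in a library and 0 times in DOP3, DOP5 and WCOC1. A count of 0 allows up to 3 counts, and no fold change is given for it. Of 9 granulocyte genes taken as a list beside CEBPE, not all of them known to depend on it, 7 had an identifier in the count files and 4 passed the filter. Of these 4, 0 were called by edgeR in any comparison (1 had an unadjusted p under 0.05 in DOP vs C, 0 in WCOC vs C and 1 in WCOC vs DOP), and LCN2 was at 0 in all libraries. S100A12, the most abundant of the 4, had a mean of 31.2 ± 14.4 CPM in C, 31.0 ± 8.72 CPM in DOP and 23.9 ± 18.9 CPM in WCOC (SD, n = 5).

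**Figure D1:**
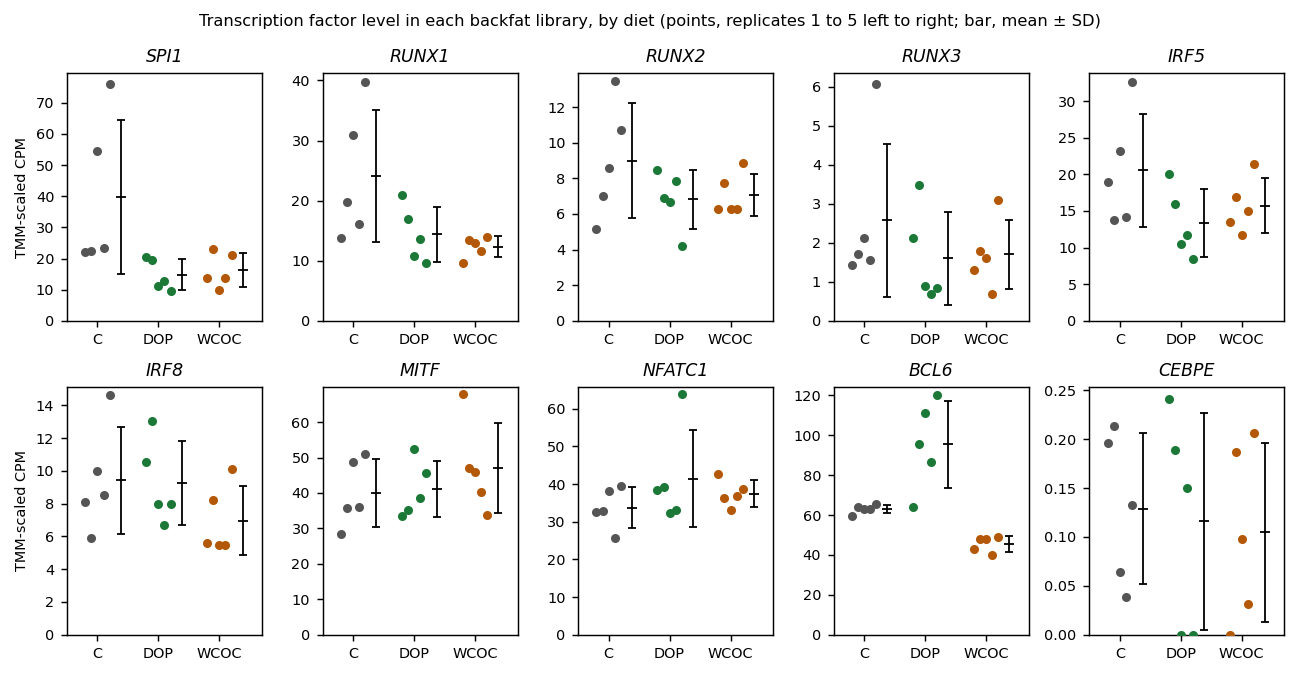
TMM-scaled CPM (vertical axes, from 0) of the 10 transcription factors in each of the 15 libraries, grouped by diet (points, replicates 1 to 5 from left to right within a diet; horizontal mark and bar, mean ± SD of 5 libraries). SPI1 and RUNX1 are high in C3 and C5, BCL6 is tightly grouped in C (59.7 to 65.4 CPM) and lies lower in all 5 WCOC libraries, and CEBPE is near 0 in all 15.

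SPI1 and RUNX1, the PU.1 gene and the RUNX factor of blood cells, were lower in WCOC than in C, and SPI1 had similarly low values in DOP. BCL6 rose in DOP and stood lower in WCOC than in either of the other diets. RUNX2, RUNX3, IRF5, IRF8, MITF and NFATC1 passed the test in none of the 3 comparisons. A gene was called differentially expressed (DEG) when edgeR's quasi-likelihood test gave a Benjamini-Hochberg adjusted p under 0.05 over the 14918 genes tested and a log2 fold change (log2FC) of at least 0.58 in size. DOP vs C and WCOC vs C share the control libraries, so their values are given side by side without being compared as independent results.

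SPI1 (ENSSSCG00000013237) lies on the plus strand of chromosome 2 from 15227850 to 15245679. Its level was 22.2, 22.3, 54.6, 23.5 and 76.1 CPM in C1 to C5. It was 20.6, 19.6, 11.2, 12.8 and 9.59 CPM in DOP1 to DOP5. In WCOC1 to WCOC5 it was 13.8, 22.95, 10.02, 13.9 and 21.2 CPM. All 5 DOP libraries lay below the lowest control library, whereas 4 of 5 WCOC libraries did, and C3 and C5 were more than double the other controls.
The log2FC of SPI1 was -1.28 ± 0.37 (SE) in WCOC vs C, with an adjusted p of 0.0408 by edgeR. In DOP vs C it was -1.43 ± 0.37, which missed the threshold (edgeR adjusted p = 0.0820, 0.00428 with DESeq2). Between WCOC and DOP the log2FC of SPI1 was 0.15, with a 95% interval from -0.64 to 0.93, which leaves room for a difference in either direction.
With C3 and C5 left out, the log2FC of SPI1 came to -0.47 in WCOC vs C (edgeR adjusted p = 0.400) and -0.62 in DOP vs C (edgeR adjusted p = 0.429). The WCOC call was made in 8 of the 15 fits that left out 1 library (edgeR adjusted p from 0.0314 to 0.110). It was lost when DOP4, WCOC1, WCOC3, WCOC4 or WCOC5 was left out, with only the diets compared in the fit (edgeR adjusted p = 0.0614), when C3 (edgeR adjusted p = 0.09875) or C5 (edgeR adjusted p = 0.110) alone was left out, and on flow cell A alone, where 4 control and 5 WCOC libraries gave a log2FC of -0.92 (edgeR adjusted p = 0.121). With flow cell as a covariate it was -0.91 in WCOC vs C (edgeR adjusted p = 0.109) and -2.37 in DOP vs C (edgeR adjusted p = 0.0252), the latter resting on C5 as the control library of flow cell B.

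RUNX1 (ENSSSCG00000035537) lies on the minus strand of chromosome 13 from 198371835 to 198635648. Its level was 13.8, 19.8, 31.0, 16.2 and 39.7 CPM in C1 to C5. It was 20.9, 16.9, 10.8, 13.6 and 9.69 CPM in DOP1 to DOP5. In WCOC1 to WCOC5 it was 9.65, 13.5, 12.96, 11.7 and 13.9 CPM. The WCOC libraries were the most alike of the 3 groups (mean 12.3 ± 1.72 CPM, SD, n = 5), and WCOC5 overlapped C1, the lowest control.
RUNX1 fell in WCOC vs C by 0.97 ± 0.28 on the log2 scale (edgeR adjusted p = 0.0387). Its log2FC was -0.75 ± 0.27 in DOP vs C (edgeR adjusted p = 0.184) and -0.22 in WCOC vs DOP, with a 95% interval from -0.81 to 0.36.
In the fit without C3 and C5 the log2FC of RUNX1 was -0.43 in WCOC vs C (edgeR adjusted p = 0.334) and -0.21 in DOP vs C (edgeR adjusted p = 0.771). On flow cell A alone the WCOC difference was -0.72 (edgeR adjusted p = 0.0857), and leaving out C3 or C5 alone also ended the call (edgeR adjusted p = 0.0945 and 0.0984), as did leaving out WCOC1, WCOC3, WCOC4 or WCOC5. The call was made in 9 of the 15 fits that left out 1 library (edgeR adjusted p from 0.0204 to 0.1005).

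The other RUNX genes gave no call. RUNX2 (ENSSSCG00000001710), on chromosome 7 from 40106581 to 40353304, ran from 5.15 to 13.4 CPM in C (median 8.57), from 4.18 to 8.48 CPM in DOP (median 6.91) and from 6.25 to 8.85 CPM in WCOC (median 6.27). The 3 ranges overlapped, and the 95% interval of the RUNX2 log2FC was -0.91 to 0.11 in DOP vs C and -0.85 to 0.16 in WCOC vs C. With C3 and C5 left out, its log2FC was -0.33 in DOP and -0.27 in WCOC vs C, neither of them called. RUNX2 shares 54543 bases of its gene span, introns included, with SUPT3H on the other strand, and overlap of exons was not examined. The paper aligned the reads as strand-specific, but the strand setting of the counting step is not given in the sources used here. Whether this affects the counts of RUNX2 is therefore uncertain.
RUNX3 (ENSSSCG00000032686), on chromosome 6 from 82531203 to 82595044, was the scarcest factor that passed the filter, with 18 to 183 counts a library. It was 1.42, 1.71, 2.13, 1.56 and 6.06 CPM in C1 to C5, 2.13, 3.47, 0.895, 0.676 and 0.837 CPM in DOP1 to DOP5, and 1.31, 1.80, 1.60, 0.699 and 3.10 CPM in WCOC1 to WCOC5. C5 was the highest library, and the 3 groups overlapped.
The log2FC of RUNX3 was -0.70 in DOP vs C, with a 95% interval from -1.83 to 0.44, and -0.60 in WCOC vs C, with an interval from -1.73 to 0.52. When C3 and C5 were left out, these were 0.029 and 0.12. Per kilobase, RUNX1 made up 63.5 ± 8.49% of the summed RUNX level in C, 59.7 ± 3.16% in DOP and 55.3 ± 4.23% in WCOC (SD, n = 5), and RUNX3 9.27 ± 3.16%, 9.004 ± 4.85% and 10.5 ± 3.82%.

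IRF5 (ENSSSCG00000016573), which drives inflammatory cytokines in macrophages, ran from 13.8 to 32.6 CPM in C (median 18.98), from 8.44 to 20.003 CPM in DOP (median 11.7) and from 11.7 to 21.5 CPM in WCOC (median 14.99). C3 and C5 were its 2 highest libraries, and all 3 groups overlapped. Its log2FC was -0.63 in DOP vs C, with a 95% interval from -1.20 to -0.06 and an edgeR adjusted p of 0.242, and -0.39 in WCOC vs C (interval -0.95 to 0.18). In the fit without C3 and C5 the difference was -0.23 in DOP and 0.0070 in WCOC vs C. IRF5 lies on chromosome 18 from 19678377 to 19691154, and its gene span shares 2044 bases with KCP on the other strand. Overlap of exons was not examined here either, so whether this affects the counts of IRF5 is uncertain too.
IRF8 (ENSSSCG00000034980), the PU.1 partner of monocyte and dendritic cell formation on chromosome 6 from 3041617 to 3060685, ran from 5.90 to 14.6 CPM in C (median 8.53), from 6.72 to 13.1 CPM in DOP (median 7.99) and from 5.45 to 10.1 CPM in WCOC (median 5.596). In IRF8, 3 WCOC libraries lay below all control and all DOP libraries, and the other 2 lay among them. The log2FC of IRF8 was -0.03 in DOP vs C (95% interval -0.57 to 0.51), -0.44 in WCOC vs C (-0.98 to 0.11) and -0.41 in WCOC vs DOP (-0.95 to 0.13). When C3 and C5 were left out, it was 0.30 in DOP and -0.11 in WCOC vs C, and neither was called.

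MITF (ENSSSCG00000011514), which acts with PU.1 in osteoclasts and also in melanocytes and mast cells, ran from 28.3 to 50.96 CPM in C (median 36.1), from 33.6 to 52.5 CPM in DOP (median 38.6) and from 33.9 to 67.9 CPM in WCOC (median 45.9). It lies on chromosome 13 from 51177356 to 51422096. Its log2FC was 0.04 in DOP vs C (95% interval -0.38 to 0.46), 0.23 in WCOC vs C (-0.18 to 0.65) and 0.19 in WCOC vs DOP (-0.22 to 0.61), and the groups overlapped. Leaving out C3 and C5 gave 0.30 in DOP and 0.49 in WCOC vs C, again without a call (edgeR adjusted p = 0.606 and 0.224).
NFATC1 (ENSSSCG00000004856), the master factor of osteoclasts downstream of RANK, lies on chromosome 1 from 145940099 to 146002897. Its level ran from 25.7 to 39.5 CPM in C (median 32.9), and from 33.0 to 42.7 CPM in WCOC (median 36.8), and 4 DOP libraries lay within 32.3 to 39.3 CPM while DOP5 reached 63.8 CPM. DOP5 was also the library with the highest skeletal muscle markers, and their part in its NFATC1 level was not tested. The log2FC of NFATC1 was 0.29 in DOP vs C (95% interval -0.07 to 0.65), 0.15 in WCOC vs C (-0.21 to 0.51) and -0.14 in WCOC vs DOP (-0.50 to 0.22). It was 0.44 in DOP and 0.30 in WCOC vs C without C3 and C5, and neither was called.

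BCL6 (ENSSSCG00000011810), a zinc finger repressor of germinal centre B cells that also restrains inflammatory genes in macrophages and acts in liver and fat metabolism, lies on the minus strand of chromosome 13 from 125377247 to 125401328. It was the most even member in the control group, at 59.7, 64.3, 63.0, 63.2 and 65.4 CPM in C1 to C5. In DOP1 to DOP5 it was 64.1, 95.4, 111, 86.4 and 120 CPM. It was 42.8, 47.8, 48.1, 40.2 and 48.9 CPM in WCOC1 to WCOC5. In DOP, 4 libraries lay above all controls and DOP1 lay among them, while all 5 WCOC libraries lay below all control and DOP libraries.
BCL6 rose in DOP vs C by a log2FC of 0.60 ± 0.13 (edgeR adjusted p = 0.0452) and fell in WCOC vs DOP by 1.07 ± 0.13 on the log2 scale (edgeR adjusted p = 0.000739). In WCOC vs C the log2FC was -0.47 ± 0.13, with an edgeR adjusted p of 0.0333 but a size below 0.58, so it was not a DEG. C3 and C5 did not stand apart in BCL6, and without them the log2FC was 0.61 in DOP vs C (edgeR adjusted p = 0.265), -0.46 in WCOC vs C (edgeR adjusted p = 0.147) and -1.07 in WCOC vs DOP (edgeR adjusted p = 0.00261).
The DOP call was lost in 14 of the 15 fits that left out 1 library, with a log2FC between 0.50 and 0.71 and an edgeR adjusted p between 0.0218 and 0.121, and was made only without DOP1. The WCOC vs DOP call was made in 25 of 26 alternatives and was lost with flow cell as a covariate, at a log2FC of -1.003 (edgeR adjusted p = 0.253). On flow cell A alone the log2FC in WCOC vs C was -0.47 (edgeR adjusted p = 0.0176), and C5, the control library read with the DOP libraries, had 65.4 CPM against 59.7 to 64.3 CPM in the control libraries of flow cell A. As C5 is the only control library of flow cell B, diet and flow cell cannot be told apart for BCL6 in DOP.

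Skeletal muscle markers moved in part with BCL6 among the DOP libraries. Their sum was 33.3 CPM in DOP1, 9776 CPM in DOP2, 228 CPM in DOP3, 6041 CPM in DOP4 and 46835 CPM in DOP5. DOP5 had the highest and DOP1 the lowest value of both, whereas DOP3 had the second highest BCL6 level (111 CPM) with a muscle sum within the range of the control libraries (45.9 to 3792 CPM). Among the control libraries, C3 had a muscle sum of 3792 CPM and C2 of 45.9 CPM, with BCL6 at 63.0 and 64.3 CPM. WCOC libraries had 17.5 to 727 CPM. The part of muscle in the BCL6 level was not tested.

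**Figure D2:**
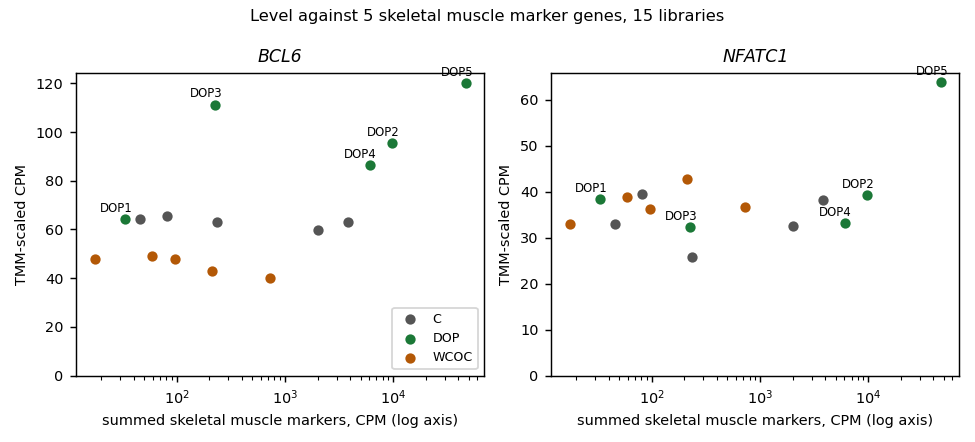
TMM-scaled CPM of BCL6 and NFATC1 (vertical axes, from 0) against the summed CPM of 5 skeletal muscle markers (horizontal log axis) in 15 libraries coloured by diet, with the DOP libraries named. DOP5 is highest for both genes and for muscle markers, DOP3 combines 111 CPM of BCL6 with a low muscle sum, and the WCOC libraries have the lowest BCL6 values over their whole range of muscle sums.

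In counts, 1 of the 9 members tested was a DEG in DOP vs C (BCL6), beside 0.764% of all 14918 genes, and it was higher, as were 0.215% of all genes, while 0.55% of all genes were called lower. In WCOC vs C 2 of 9 were DEGs (SPI1 and RUNX1), both lower, beside 6.25% of all genes called, 2.33% called higher and 3.93% called lower. In WCOC vs DOP 1 of 9 was called (BCL6, lower), beside 7.76% of all genes called, 2.65% called higher and 5.11% called lower. At an unadjusted p under 0.05 stood 4 of 9 members in DOP vs C (17.6% of all genes), 3 in WCOC vs C (26.4%) and 1 in WCOC vs DOP (28.1%).
The values of 2 diets did not overlap for 1 of 9 members in DOP vs C (SPI1, 3.47% of all genes), 1 in WCOC vs C (BCL6, 7.62%) and 1 in WCOC vs DOP (BCL6, 8.9%). The median log2FC of the 9 members was -0.40 in DOP vs C, -0.44 in WCOC vs C and 0.05 in WCOC vs DOP, beside 0.01, 0.00433 and 0.000668 over all genes tested. Leaving out C3 and C5 left 0 of the 9 called by edgeR in either comparison with C, where 0 of all genes were called in DOP vs C (1776 genes had an unadjusted p under 0.05, with SPI1, NFATC1 and BCL6 among them) and 289 in WCOC vs C (2877 genes, with MITF and BCL6 among them).

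**Figure D3:**
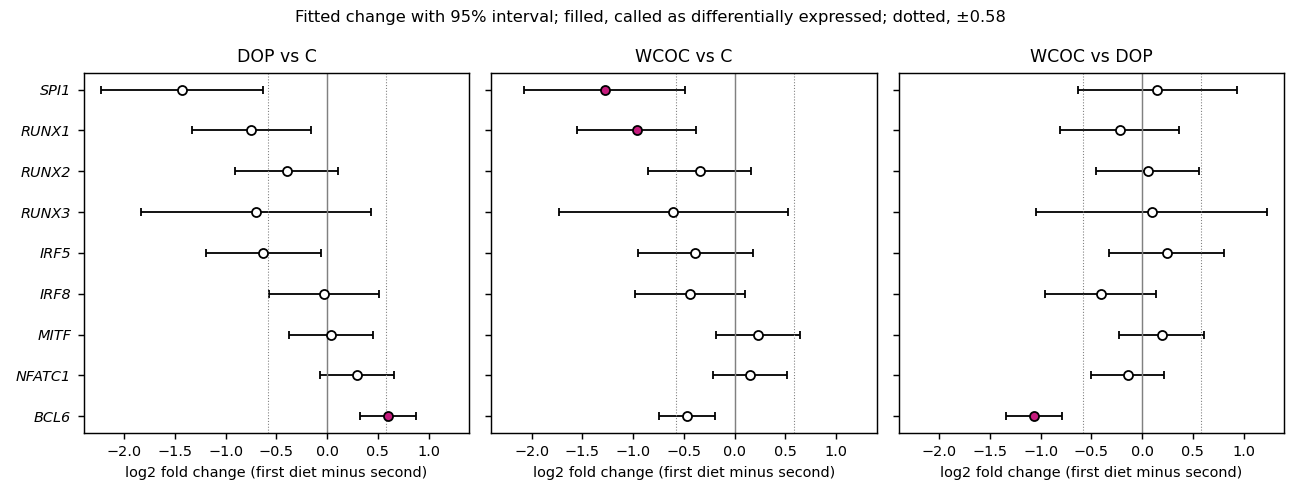
Fitted log2FC (horizontal axis, first diet minus second) with its 95% interval for the 9 members tested in the 3 comparisons (filled points, DEG; dotted lines, the threshold of 0.58 in either direction). SPI1 and RUNX1 are called in WCOC vs C, and BCL6 lies above 0 in DOP vs C and below 0 in both comparisons of WCOC.

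Within diets, 5 of the 9 factors followed the summed level of the macrophage markers, which is the level of 13 genes of 14 listed, CSF1R the most abundant. Levels were taken on the log2 scale and centred on the mean of their diet, and 9 relations over the 15 libraries were tested by two-sided permutation within diets. SPI1 had r = 0.90 and rho = 0.82 (permutation p = 7e-05 and 0.00187, adjusted over the 9 to 0.00054 and 0.00579), and IRF5 r = 0.88 and rho = 0.91 (permutation p = 0.00012 and 7e-05, adjusted 0.00054 and 0.00063). RUNX1 had r = 0.81 and rho = 0.80 (permutation p = 0.00104 and 0.00193, adjusted 0.00312 and 0.00579), and IRF8 r = 0.78 and rho = 0.73 (permutation p = 0.00279 and 0.00614, adjusted 0.00628 and 0.0138). RUNX3 had r = 0.68 and rho = 0.65 (permutation p = 0.00971 and 0.0125, adjusted 0.0175 and 0.0224). The library with the highest RUNX3 level of each diet (C5, DOP2 and WCOC5) was also the one with the highest sum of T and NK cell markers (45.1, 35.0 and 28.4 CPM), whereas the macrophage sum was highest in C5, DOP1 and WCOC2. IRF8 was highest in the same libraries (14.6 CPM in C5, 13.1 in DOP2 and 10.1 in WCOC5). The B cell marker sum was also highest in DOP2 (11.6 CPM) and WCOC5 (6.90 CPM) of their diets, but not in C5. The part of any of these cells in the RUNX3 level was not tested.
RUNX2 (r = 0.49, rho = 0.56, permutation p = 0.108 and 0.0608, adjusted 0.163 and 0.0913) missed the threshold. MITF (r = -0.01, rho = -0.04, permutation p = 0.972 and 0.904, adjusted 0.996 and 1), NFATC1 (r = 0.00149, rho = 0, permutation p = 0.996 and 1, adjusted 0.996 and 1) and BCL6 (r = -0.29, rho = -0.08, permutation p = 0.285 and 0.780, adjusted 0.367 and 1) did so too. As a scale for these values, 0.208% of the 14918 genes tested had a higher r than SPI1, 0.322% than IRF5, 1.03% than RUNX1, 1.37% than IRF8, 3.26% than RUNX3, 8.26% than RUNX2 and 80.7% than BCL6.
C5 and C3 were the 2 libraries farthest from the median of the marker sum. Without them r was 0.84 for SPI1, 0.82 for IRF5, 0.67 for IRF8, 0.65 for RUNX1, 0.57 for RUNX3 and 0.44 for RUNX2, and it was -0.56 for MITF, -0.43 for BCL6 and -0.36 for NFATC1 (n = 13). On the 9 libraries of flow cell A alone, none of the 9 relations passed the adjusted threshold: r was 0.86 for SPI1 and 0.81 for IRF8 (permutation p = 0.0178 and 0.0153, both adjusted to 0.0770), with rho = 0.50 and 0.73 (permutation p = 0.214 and 0.0547). RUNX1 had r = 0.62 and rho = 0.63 there (permutation p = 0.0998 and 0.0911, r adjusted 0.225), and r = 0.01 without C3 and WCOC1, the 2 libraries farthest from the median on that flow cell, so that its relation rests on them. Flow cell B held 5 DOP libraries and 1 control library, too few of one group for a value of its own.

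**Figure D4:**
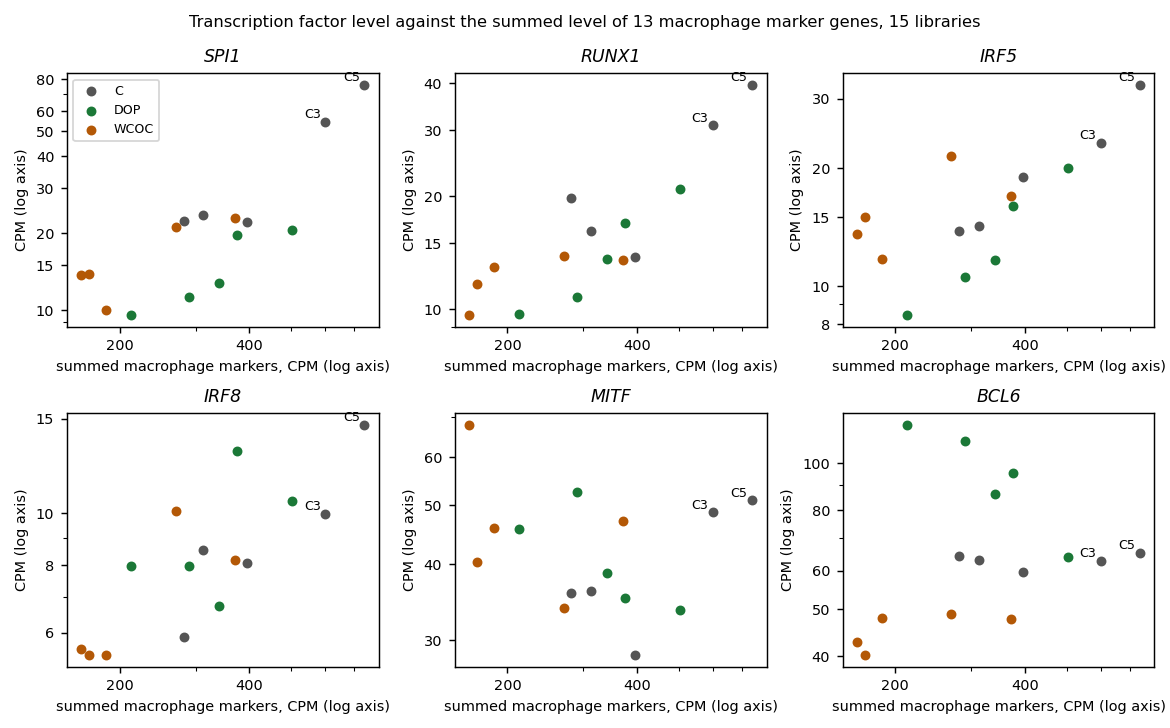
CPM of 6 of the factors (vertical log axes) against the summed CPM of 13 macrophage markers (horizontal log axis) in 15 libraries coloured by diet, with C3 and C5 named. SPI1, RUNX1, IRF5 and IRF8 are higher where the marker sum is higher, C5 is the highest library for these 4, and MITF and BCL6 show no such order.

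Set against the marker sum, SPI1 amounted to 80.9 ± 17.6 CPM per 1000 CPM of macrophage markers in C (range 56.1 to 103, SD, n = 5). In DOP it was 42.9 ± 5.97 (range 37.6 to 52.3), and in WCOC 72.1 ± 13.5 (range 53.9 to 84.7). For SPI1 the DOP libraries thus lay below all control and WCOC libraries, and those of C and WCOC overlapped. IRF5 in DOP (range 34.3 to 42.6) also lay below all WCOC libraries (45.7 to 88.3), but it overlapped C (38.7 to 49.0). The share of all genes that separate in this way is not given. RUNX1 gave 52.5 ± 12.6 for the control libraries, 41.9 ± 3.52 for DOP and 57.1 ± 13.7 for WCOC, and the 3 ranges overlapped. These ratios were chosen after the values were seen and carry no test.

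By the rule for genes of like pattern (the highest r with the member over the 15 libraries after centring within diets, among 11132 symbol-bearing genes of at least 1 CPM), the genes nearest to SPI1 were LAT2 (r = 0.99), GMFG (0.98) and FERMT3 (0.97). Those nearest to RUNX1 were SMAP2 (r = 0.96), OTULINL (0.96) and BCAT1 (0.95), to IRF5 PRKCD, GNA15 and TLR2 (0.95 each), and to IRF8 LY86 (0.94), PTPN6 (0.92) and ARHGAP45 (0.92). RUNX3 was nearest to LCP2 (r = 0.98), CORO1A (0.97) and PTPRC (0.96), and RUNX2 to DOCK5 (0.89), GALNT10 (0.89) and FAM83H (0.86). The genes nearest to MITF were HNMT (r = 0.84), SGPL1 (0.83) and ANKRD42 (0.80), to NFATC1 MAPKAPK3 (0.92), FILIP1L (0.92) and FEM1C (0.91), and to BCL6 STT3B (0.89), PPA1 (0.84) and GOT1 (0.83). LAT2, FERMT3, LCP2, CORO1A and PTPRC encode proteins of blood cells, and C3 and C5 entered these values.
Among the members themselves the highest values were 0.91 for SPI1 and IRF5, 0.88 for SPI1 and RUNX1, and 0.87 for RUNX3 and IRF8, and the lowest was -0.48 for RUNX2 and NFATC1. Members share libraries and depth, so these r are a description.

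The genes that act with or downstream of the factors were taken as lists. Of 12 RUNX partners and co-regulators, which hold CBFB and the TLE corepressors, all 12 were tested. TLE3, a corepressor that RUNX proteins recruit, was the DEG of DOP vs C, with 92.1 ± 4.13 CPM in C, 59.7 ± 11.01 CPM in DOP and 79.7 ± 13.8 CPM in WCOC (log2FC -0.63 ± 0.13, edgeR adjusted p = 0.0411). With C3 and C5 left out, 0 of the 12 were called by edgeR in DOP vs C, TLE3 included. In WCOC vs C 0 of 12 were called by edgeR (6 had an unadjusted p under 0.05), and in WCOC vs DOP CBFA2T3 was called, higher in WCOC (log2FC 0.77 ± 0.23, edgeR adjusted p = 0.0409). TLE5, the most abundant of the list, had 66.6 ± 11.4 CPM in C, 92.4 ± 19.001 CPM in DOP and 73.8 ± 10.1 CPM in WCOC and was not called.

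Of 23 myeloid target genes of PU.1, IRF and RUNX proteins, 18 were tested. In DOP vs C 4 fell and 14 did not pass the test, with a median log2FC of -1.37 over the 18, and in WCOC vs C 7 fell and 11 did not pass, with a median of -1.27. In WCOC vs DOP 0 were called by edgeR, 0 had an unadjusted p under 0.05, and the median was -0.00371.
CTSS, a lysosomal protease of antigen presenting cells, had 149 ± 97.6 CPM in C, 43.3 ± 7.54 CPM in DOP and 47.1 ± 10.1 CPM in WCOC (log2FC -1.78 ± 0.35 in DOP and -1.66 ± 0.35 in WCOC, edgeR adjusted p = 0.0367 and 0.0103). The scavenger receptor gene MSR1 had 44.2 ± 40.04 CPM in C, 4.89 ± 2.75 CPM in DOP and 6.91 ± 5.07 CPM in WCOC (log2FC -3.18 and -2.68, edgeR adjusted p = 0.0397 and 0.0175). ITGB2, the beta chain of leukocyte integrins, fell by 1.91 in DOP and by 1.67 in WCOC on the log2 scale (edgeR adjusted p = 0.0421 and 0.0175).
The large SD in C came with the high values of C3 and C5. In the fit that left them out, 0 of the 18 were called by edgeR in DOP vs C and 1 in WCOC vs C (CTSS), and the medians were -0.60 and -0.50, beside 0.01 and 0.01 over all genes. CSF1R, the receptor that macrophages need to live and the most abundant of the list, was not called (log2FC -0.71 in DOP and -1.01 in WCOC vs C, edgeR adjusted p = 0.279 and 0.0655).

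Of 14 osteoclast targets of NFATC1 and MITF, 11 were tested, while MITF and NFATC1 themselves gave no call. In DOP vs C 5 of the 11 fell and in WCOC vs C 4 fell, with medians of -1.07 and -1.14, and in WCOC vs DOP 0 were called by edgeR (4 had an unadjusted p under 0.05). GPNMB, a lysosomal glycoprotein gene of foam cells and osteoclasts, had 152 ± 106 CPM in C, 24.5 ± 13.1 CPM in DOP and 43.9 ± 13.7 CPM in WCOC (log2FC -2.64 ± 0.48 and -1.79 ± 0.47, edgeR adjusted p = 0.0277 and 0.0269). The cell fusion genes OCSTAMP (log2FC -3.92 in DOP and -2.50 in WCOC vs C, edgeR adjusted p = 0.0367 and 0.0372) and DCSTAMP (-3.86 and -2.58, edgeR adjusted p = 0.0452 for each) were called in both comparisons. MMP9 fell by 3.96 in DOP (edgeR adjusted p = 0.0367) and ACP5, the tartrate-resistant phosphatase, by 1.68 in WCOC (edgeR adjusted p = 0.0152). With C3 and C5 left out, 0 of the 11 were called by edgeR in either comparison, and the medians were -0.32 and -0.20.

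Of 10 osteoblast targets of RUNX2, 5 were tested. Their median log2FC was -0.09 in DOP vs C, with 3 of the 5 below 0. In WCOC vs C the median was 0.12, with 2 of the 5 below 0. SPP1, osteopontin, which macrophages also make, had 292 ± 309 CPM in C, 7.75 ± 4.48 CPM in DOP and 38.8 ± 26.4 CPM in WCOC and was called in both (log2FC -5.24 and -2.92, edgeR adjusted p = 0.0277 and 0.0262). COL1A1, a collagen of fibroblasts as well as of bone, fell in WCOC vs C by 0.93 on the log2 scale (edgeR adjusted p = 0.0483). None of the 5 was called when C3 and C5 were left out.

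Of 10 genes tied to BCL6 (corepressors, STAT5 and their targets), 9 were tested and 0 were called by edgeR in any comparison. At an unadjusted p under 0.05 stood 0 in DOP vs C, 6 in WCOC vs C and 4 in WCOC vs DOP. The growth hormone receptor gene GHR, the most abundant, had 574 ± 77.2 CPM in C, 594 ± 74.7 CPM in DOP and 776 ± 124 CPM in WCOC. Its log2FC in WCOC vs C was 0.43 ± 0.13 (edgeR adjusted p = 0.0487), below 0.58 in size.

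Of 56 other transcription factors of blood cells, 47 were tested. In DOP vs C 0 were called by edgeR (8 had an unadjusted p under 0.05), in WCOC vs C 1 rose and 2 fell, and in WCOC vs DOP 2 fell. The risen gene was KLF2 (log2FC 0.69 ± 0.21, edgeR adjusted p = 0.0470) and the fallen ones BHLHE40 (-1.06 ± 0.21, edgeR adjusted p = 0.00760), a stress and circadian repressor, and TFEC (-1.32 ± 0.34, edgeR adjusted p = 0.0254), the MITF relative of macrophages. CEBPD and MAF, which act in the acute phase and in resident macrophages, fell in WCOC vs DOP (log2FC -0.80 ± 0.20 and -1.07 ± 0.27, edgeR adjusted p = 0.0207 and 0.0209). CEBPA, the factor of fat cells and granulocytes and the most abundant of the list, had 781 ± 136 CPM in C, 618 ± 42.5 CPM in DOP and 703 ± 117 CPM in WCOC and was not called. Leaving out C3 and C5 left 1 of the 47 called in WCOC vs C (BHLHE40).

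Macrophage markers fell in part in WCOC vs C, where SPI1 and RUNX1 fell as well, and differed from them in the other comparisons. Of the 13 marker genes tested, 0 were called in DOP vs C by edgeR (5 had an unadjusted p under 0.05), 5 fell in WCOC vs C, CD68, AIF1, CD163 and VSIG4 with the smallest adjusted p, and CD163 fell in WCOC vs DOP. Their median log2FC was -0.38 in DOP vs C, -1.16 in WCOC vs C and -0.74 in WCOC vs DOP, and 0.18 and -0.69 in the 2 comparisons with C without C3 and C5, where none was called. Beside these medians, the log2FC of SPI1 was -1.43, -1.28 and 0.15 in the 3 comparisons and that of RUNX1 -0.75, -0.97 and -0.22. CD163, the haemoglobin receptor of resident macrophages, had 29.97 ± 11.5 CPM in C, 33.0 ± 11.3 CPM in DOP and 13.5 ± 6.45 CPM in WCOC, whereas CD68 had 24.5 ± 16.4, 8.81 ± 4.67 and 5.70 ± 2.46 CPM. Their part in the SPI1 and RUNX1 results was not tested.
Markers of other blood cells were lower than those of macrophages. Dendritic cell markers, which bear on IRF8, summed to 24.0 to 38.6 CPM in C, 33.8 to 47.6 CPM in DOP and 21.5 to 64.7 CPM in WCOC over 5 genes. ZBTB46 made up most of this sum, with means of 29.6 CPM in C, 36.4 CPM in DOP and 43.0 CPM in WCOC. In WCOC vs C, 4 of the 5 genes had a log2FC below 0 (median -0.90), and 3 had an unadjusted p under 0.05 by edgeR. Neutrophil markers summed to 23.7 to 92.6 CPM in C, 25.4 to 57.5 CPM in DOP and 13.8 to 65.9 CPM in WCOC over 6 genes found, T and NK cell markers to 18.1 to 45.1, 9.32 to 35.0 and 7.43 to 28.4 CPM, and B cell markers to 0.726 to 1.36, 0.772 to 11.6 and 1.02 to 6.90 CPM, with CD79A at 0 in all libraries. Melanocyte markers, which bear on MITF, summed to at most 5.77 CPM. Of the 5 neutrophil, 1 B cell and 2 melanocyte markers tested, 0 were called by edgeR in any comparison, and unadjusted p under 0.05 were found only for neutrophil markers (2 in DOP vs C, 1 in WCOC vs C and 1 in WCOC vs DOP). Mast cell markers ran from 21.3 to 50.2 CPM over the 15 libraries, and KIT, which MITF controls in mast cells, rose in both diets (7.27 ± 1.17 CPM in C, 12.5 ± 2.50 in DOP and 13.3 ± 2.88 in WCOC; log2FC 0.78 and 0.87, edgeR adjusted p = 0.0452 and 0.00680). The other 3 mast cell markers tested had a log2FC below 0 in WCOC vs C, MS4A2 among them (-0.67, edgeR adjusted p = 0.114), none of these 3 was called there, and the median of the 4 was -0.81. KIT was called in neither comparison when C3 and C5 were left out.

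**Figure D5:**
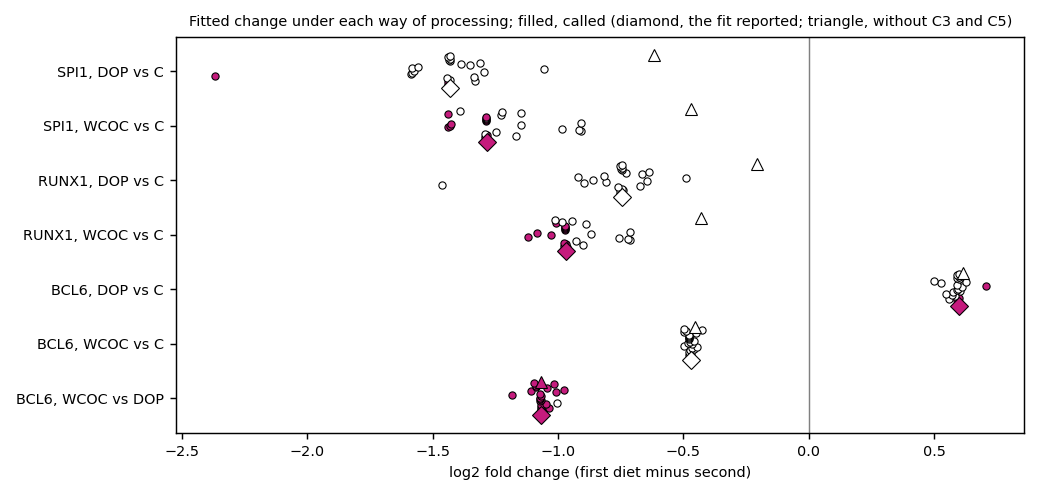
Fitted log2FC (horizontal axis, first diet minus second) of SPI1, RUNX1 and BCL6 in each comparison with C, and of BCL6 in WCOC vs DOP, under each way of processing (circles; diamond, the fit reported; triangle, the fit without C3 and C5; filled, called). The triangles of SPI1 and RUNX1 lie nearest to 0, and those of BCL6 lie among its other values.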

How the data were processed

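Total RNA of 15 backfat biopsies was sequenced by the study as 76-base read pairs. The authors aligned them to Sscrofa11.1 with HISAT2 and counted read pairs per gene with HTSeq, and the deposited files hold these raw counts, 1 file per animal. The 5 lines of uncounted pairs, 23.4% to 32.8% of a library, stayed out of library sizes and tests. The annotation release is not given in the sources used here.

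The 10 members, the 18 lists, the tests and the alternatives were chosen with earlier results of these data known. Gene symbols came from a reference table. Counts were fitted in R 4.3.3 with edgeR 4.0.16 (filterByExpr, TMM, quasi-likelihood, 1 mean per diet over all 15 libraries), and two-sided p-values over 14918 genes were adjusted by Benjamini-Hochberg. Each group is 5 pigs of 1 pen, so p-values measure the spread between pigs within pens. CPM are counts per 1000000 of the TMM-scaled library size. log2 CPM for likeness used a prior count of 1. Relations to the macrophage sum used 100000 permutations within diets, with diet-centred log2(CPM + 0.05) values. Genes named are the members and, per list and comparison, at most 4 DEGs by adjusted p and the most abundant gene. The ratios to the macrophage sum were chosen after their values were seen. Positions, exons and promoter sequences are RefSeq's for Sscrofa11.1. The workflow was tested on simulated data. Alternatives were DESeq2 1.42.0, limma-voom (limma 3.58.1), other filters and scalings, robust fitting, a replicate block, flow cell, lane and leaving out libraries. The fit without C3 and C5 was chosen after seeing the data. Tables and figures were made in Python 3.11.15.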

Additional observations from a re-analysis of the deposited data

Results flagged for a closer look

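Of 27 groups of 5 libraries (9 members in 3 diets), 2 held a library far from the other 4, where chance alone flags about 1 group in 20. RUNX3 was 6.06 CPM in C5, with the gap to the next library taking 0.85 of the range of the group against a critical value of 0.71. NFATC1 was 63.8 CPM in DOP5, with a gap of 0.78 of the range.

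The change of BCL6 against C differed between the libraries of the 2 olive diets. The log2FC of WCOC vs DOP, which tests that difference, was -1.07 (edgeR adjusted p = 0.000739). All 5 WCOC libraries lay below all 5 DOP libraries, and the values of these diets did not overlap for 8.9% of all genes tested. The DOP libraries were read on flow cell B and the WCOC libraries on flow cell A, so diet and flow cell cannot be told apart here. With flow cell as a covariate the log2FC was -1.003 (edgeR adjusted p = 0.253).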

How the results depend on the processing

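Members called in DOP vs C numbered 1 in the reported fit, 2 with DESeq2 (BCL6 and SPI1), 1 with flow cell as a covariate (SPI1 in place of BCL6) and 0 with no filter, limma-voom, only the diets compared or without C3 and C5 together. In WCOC vs C they numbered 2, 1 with no filter or only the diets compared, and 0 with limma-voom, on flow cell A or its lane 2, without C3 and C5, or when flow cell was a covariate. In WCOC vs DOP they numbered 1, and 0 with flow cell as a covariate. Leaving out 1 library at a time gave 0 to 1, 0 to 2 and 1 to 1 members called. Of all genes, 114 were called in DOP vs C, 518 with DESeq2, 170 with flow cell as a covariate and 85 with no filter. The number was 19 with limma-voom, 2 with only the diets compared, 0 without C3 and C5, and 0 to 200 leaving out 1 library. In WCOC vs C, 933 genes were called, 882 with limma-voom, 804 with no filter and 766 with only the diets compared. The number there was 680 with flow cell as a covariate and 1493 with no threshold on the log2FC. It was 486 on flow cell A, 34 on its lane 2, 289 without C3 and C5, and 468 to 1163 leaving out 1 library. In WCOC vs DOP, 1158 genes were called, 1842 with no threshold, 1 with flow cell as a covariate, and 639 to 1291 leaving out 1 library. Leaving out C3 and C5, 2 members did not overlap between WCOC and C. These were BCL6, lower in WCOC, and NFATC1, with 33.006 CPM in WCOC3, the lowest, against 32.936 CPM in C2, the highest left. Non-overlap comes more readily with fewer control libraries, and its share over all genes is not given for this setting. The cause of the changes between settings was not tested.

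The replicate number as a block left 0 members called in DOP vs C, 0 in WCOC vs C and 1 in WCOC vs DOP (BCL6, log2FC -1.05), and 0, 473 and 561 of all genes. Libraries of the same number did not deviate together (r from -0.50 to 0.34 over 15 pairs), so the numbers do not pair the animals.

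Differences that changed sign were not called in either setting. Without C3 and C5 the log2FC of RUNX3 was 0.029 (DOP vs C) and 0.12 (WCOC vs C), that of IRF8 0.30 (DOP vs C) and that of IRF5 0.0070 (WCOC vs C). With flow cell as a covariate it was -0.31 for MITF (DOP vs C) and, in WCOC vs DOP, 0.75 for RUNX1, 0.44 for IRF8 and 0.15 for NFATC1. Leaving out 1 library at a time gave a log2FC from -0.19 to 0.19 for IRF8 and from -0.070 to 0.14 for MITF in DOP vs C. In WCOC vs DOP the ranges were -0.083 to 0.14 for RUNX2, -0.24 to 0.59 for RUNX3, -0.0060 to 0.30 for SPI1 and -0.22 to 0.063 for NFATC1. The relation to macrophage markers turned to r = -0.36 for NFATC1 without the 2 farthest libraries and to r = 0.44 for BCL6 on flow cell A alone. CEBPE was too scarce for a test at this depth.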

Other observations

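Few endothelial and adipocyte markers were called. CLDN5, a tight junction gene of endothelium, rose in WCOC vs C (45.2 ± 8.88 CPM in C, 69.3 ± 14.9 in DOP and 75.7 ± 12.3 in WCOC, SD, n = 5; log2FC 0.75, edgeR adjusted p = 0.0123), 1 of 5 endothelial markers tested. ADIPOQ, the adiponectin gene, rose in WCOC vs C (log2FC 0.66, edgeR adjusted p = 0.0281), 1 of 9 adipocyte markers tested, and LEP, the leptin gene, was higher in WCOC than in DOP (log2FC 1.08, edgeR adjusted p = 0.0140). With C3 and C5 left out, none of these markers was called in the comparisons with C.

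Among the remaining marker lists, NKG7 of natural killer cells fell in WCOC vs C (log2FC -1.70, edgeR adjusted p = 0.0270), as did XCR1 of dendritic cells (log2FC -1.83, edgeR adjusted p = 0.0249). Both calls were lost without C3 and C5, and NKG7 was the one of 10 T and NK cell markers with an unadjusted p under 0.05 (median log2FC of the 10, -0.10). HDC, the histamine synthesis gene of mast cells, was lower in WCOC than in DOP (log2FC -1.65, edgeR adjusted p = 0.0171). TNNT3 and TNNC2 of skeletal muscle were lower (log2FC -5.48 and -5.87, edgeR adjusted p = 0.0321 and 0.0473), and KRT1 and DSG1 of epidermis higher (13.5 ± 26.1 against 0.355 ± 0.405 CPM for KRT1, edgeR adjusted p = 0.0395 and 0.0487), in WCOC than in DOP. The epidermis sum was 146 CPM in WCOC5 and 33.7 CPM in WCOC2, but 3.59 to 4.34 CPM in the other 3 WCOC libraries, against 3.655 to 22.7 CPM in DOP.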
